A study of Paralichthys olivaceus with 22 samples.

Results

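The unstimulated kidney of Japanese flounder (Paralichthys olivaceus) was described from the 8 arrays of fish given PBS, 4 taken at 6 h and 4 taken at 12 h. They were chosen by their labels and are 8 of the 22 arrays of the study, which otherwise hold kidneys of fish given an FKC preparation of Edwardsiella tarda or of Streptococcus iniae at the same times. PBS, a buffered salt solution, was the control treatment. The labels give no age, sex or strain of the fish and no route of treatment, and they do not say whether each numbered sample was 1 fish. What the p-values weigh is thus only the spread between samples, which may be technical. In limma, a linear model, that spread was taken within all 6 groups of the 22 arrays and not within PBS alone.

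The kidney of a bony fish is more than an organ of excretion. Its anterior part forms blood cells, holds B cells, T cells and phagocytes, and contains the interrenal cells that make cortisol, while its posterior part carries most of the tubules. A kidney sample therefore mixes many cell types, and in such a bulk sample fewer cells of a type and less RNA per cell cannot be told apart. The labels name the tissue as kidney and do not say which part was taken. The probes carry contig names or GenBank entry names, and 0 of these names matched the RefSeq gene table, so the tissue could not be checked against marker genes and transcripts are given by probe.

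Levels below are log2 of the spot intensity minus the array's 75th percentile, so that 0 is the 75th percentile of the probes on that array. All 8 PBS arrays lay on 1 slide, the 6 h arrays in its row 1 and the 12 h arrays in its row 2, so time and row cannot be told apart. Of 14481 probes, 7590 were well above background on all 8 arrays, 3517 on some and 3374 on none. An array of 6 h had between 9132 and 9795 such probes and an array of 12 h between 8191 and 9139. The mean was 9362 ± 296 (SD, n = 4) at 6 h and 8517 ± 425 (SD, n = 4) at 12 h, a difference that missed the threshold in a two-sided exact permutation test (p = 0.0571, or 0.229 after adjustment over the 4 array measures tested, with 0.0286 the smallest p that 4 against 4 allows). The 6 E1A spike-in probes that were well above background in every spot, which measure added RNA and not fish transcripts, were all lower at 12 h, with log2 differences from -0.25 to -0.09. In limma 0 of the 6 reached an unadjusted p of 0.05, and their lowest was 0.227. The number of arrays limits the precision of what follows.

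The signal of the unstimulated kidney was concentrated in few probes. The 10 brightest probes of an array held between 10.8% and 14.6% of its summed signal at 6 h, and from 11.6% to 12.2% at 12 h. The 100 brightest held between 51.5% and 56.6% over the 8 arrays, and the 1000 brightest between 88.5% and 90.4%. On the FKC arrays these 2 shares were alike, from 49.2% to 57.1% and from 87.4% to 90.2%. Brightness depends on the probe as well as on the transcript, so this is not an order of abundance. The bright end of the profile was largely shared between the times. The lists of the 100 brightest probes at 6 h and at 12 h shared 94 probes, and 80 probes were among the 100 brightest on each of the 8 arrays. Of the 100 brightest over all PBS arrays, between 87 and 94 were also among the 100 brightest in each of the 4 FKC groups.

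The brightest probe was CUST_12199_PI426483990, of contig JFC00088_1_code. Its level was 10.26, 11.01, 10.44 and 10.20 at 6 h and 10.52, 10.43, 10.57 and 10.53 at 12 h. The probe that followed, CUST_12212_PI426483990 of contig JFC06762_1_code, gave 10.28, 10.99, 10.38 and 10.18 at 6 h and 10.53, 10.46, 10.50 and 10.53 at 12 h. Both were highest on replicate 2 of 6 h, and their times overlapped. That array also had the lowest 75th percentile, a signal of 244.8 against 371 to 439 on the other arrays of 6 h. Before this scaling the signal of CUST_12199_PI426483990 was 492617, 503271, 513938 and 517748 at 6 h, so replicate 2 was not the highest. Whether these probes report separate transcripts was not tested. Their time differences of 0.04 (SE 0.21) and 0.05 (SE 0.19) did not pass the test. Among the 100 brightest probes the largest time difference was 0.50 in size. In limma 0 were called, the smallest adjusted p being 0.53, and 0 had an unadjusted p under 0.05. Of all tested probes 0.994% were called, so 0 of 100 is near that share, and 11.0% had such an unadjusted p.

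Samples of the same time differed little for most probes and very strongly for a few. Over the 7590 probes well above background on all 8 arrays, the median SD between samples of 1 time, pooled over both times, was 0.25 on the log2 scale, which is 1.19-fold. It was 0.23 at 6 h and 0.23 at 12 h. Repeated spots of 1 probe within an array had a median SD of 0.065, and the 17 of these repeated probes that were well above background on all 8 arrays had a median SD between samples of 0.23. The spread between samples was thus larger than that between spots. The 100 brightest probes were steadier, with a median SD of 0.17. Over the 6718 probes well above background on all 22 arrays, the median SD within a group was 0.22 and 0.23 in PBS at 6 h and 12 h, 0.32 and 0.27 after E. tarda FKC, and 0.22 and 0.27 after S. iniae FKC.

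**Figure D1:**
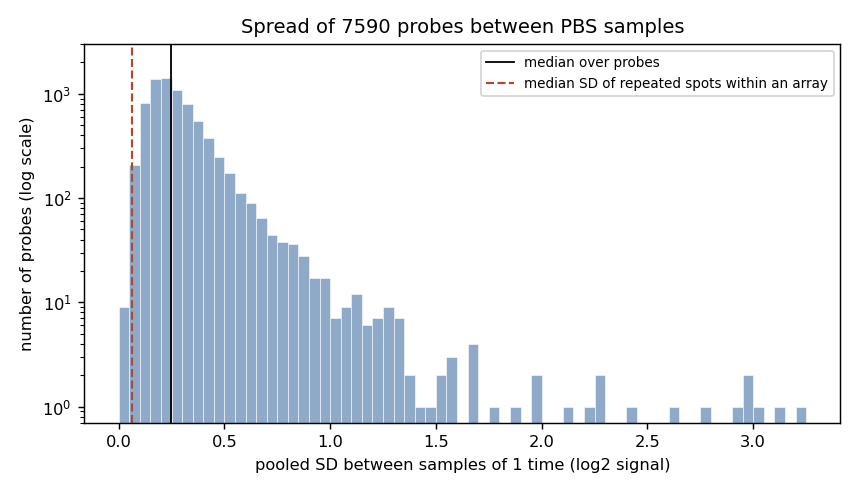
Number of probes (log axis) by their SD between PBS samples of the same time, pooled over 6 h and 12 h, in log2 signal, for the 7590 probes well above background on all 8 arrays. The solid line is the median over probes (0.25), the dashed line the median SD of repeated spots within an array (0.065), and the tail reaches an SD of 3.21.

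The distance of an array, taken as the median over probes of the absolute log2 difference from the mean of the other arrays of its time, was 0.158, 0.237, 0.195 and 0.233 at 6 h and 0.199, 0.307, 0.165 and 0.176 at 12 h. Replicate 2 of 12 h lay farthest from the others, and its array weight, 0.556, was the lowest of the 8. The means of 0.205 ± 0.037 (SD, n = 4) and 0.212 ± 0.065 (SD, n = 4) differed by less than this spread (two-sided exact permutation p = 0.857, adjusted 1.0).

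In 87 probes, 1.15% of the 7590, the SD between samples was at least 1, and in 13 it was at least 2. This group was set by its spread, after the values were seen, and its values are a description. The most variable probe was CUST_383_PI426483993, named by the entry FJ211410, with a pooled SD of 3.21. Its level was -2.35, 5.15, 0.70 and 4.13 at 6 h and 3.36, -2.35, 1.58 and -2.77 at 12 h. Replicates 2 and 4 of 6 h and replicate 1 of 12 h were high, replicate 1 of 6 h and replicates 2 and 4 of 12 h were low, and the 2 remaining arrays lay between. The highest array was 241-fold above the lowest, and both times spanned most of this range.

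Other probes followed the same order of samples. Of the 87 variable probes, 10 including CUST_383_PI426483993 had deviations from their time means that correlated with its own at 0.95 or more over the 8 arrays, a description of probes chosen for their likeness. Among all 7590 probes the count at this likeness was 13. All 10 were highest on replicate 2 at 6 h and on replicate 1 at 12 h. All 10 were lowest on replicate 1 at 6 h. At 12 h, 8 were lowest on replicate 4 and 2 on replicate 2. They bear 10 different names, 5 of contigs and 5 of other entries, and each ranged over 4.08 to 7.91 on the log2 scale. Whether the 10 probes report separate transcripts was not tested. Their mean level was -0.44, 5.88, 1.77 and 4.84 at 6 h and 4.23, -0.34, 2.90 and -0.72 at 12 h, a range of 97.3-fold. None of the 10 was called over time by limma, the smallest unadjusted p being 0.355 and the smallest adjusted p 0.804. They were taken from probes chosen for a wide spread, which enters this test, so these values say nothing about time.

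**Figure D2:**
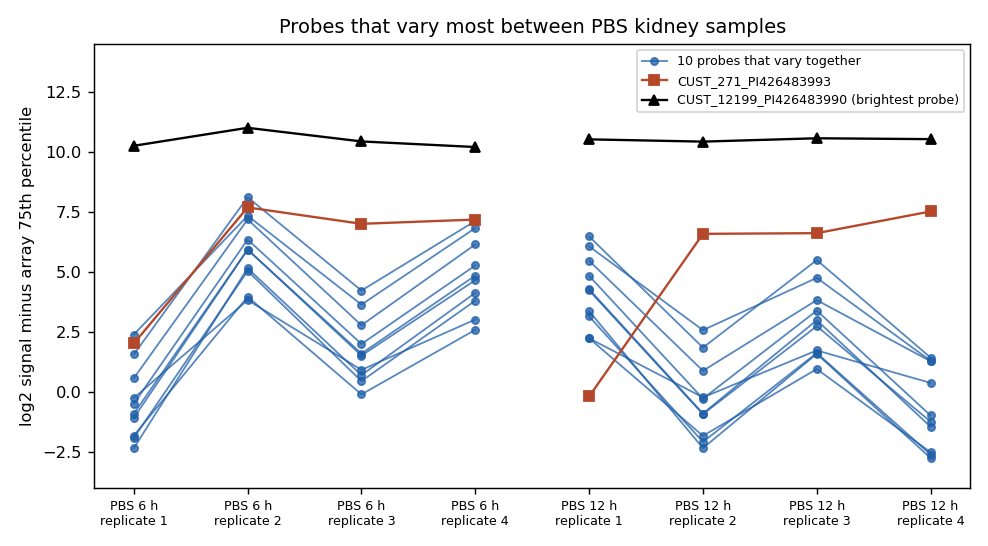
Level (log2 signal minus the array's 75th percentile) of the 10 probes that vary together (circles), of CUST_271_PI426483993 (squares) and of the brightest probe (triangles) on each of the 8 PBS arrays, with lines joining samples of 1 time for the eye only. The 10 probes run in parallel from sample to sample, with a mean that reaches 5.88 on replicate 2 of 6 h and -0.72 on replicate 4 of 12 h, while the brightest probe stays between 10.20 and 11.01.

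The same 10 probes also varied within the FKC groups, on arrays that did not choose them. Their mean ranged from -2.34 to 5.29 after E. tarda FKC at 12 h, which is 198-fold, and from -2.23 to 5.13 after S. iniae FKC at 12 h, which is 165-fold. At 6 h the range was narrower, from 1.93 to 3.17 on the 3 E. tarda arrays and from 0.50 to 3.03 on the 3 S. iniae arrays.

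The probe next in spread behaved differently. CUST_271_PI426483993, named by the entry DQ860840, had a pooled SD of 3.15 and a level of 2.01, 7.69, 7.003 and 7.18 at 6 h and of -0.20, 6.58, 6.61 and 7.52 at 12 h. At each time replicate 1 was low and the other 3 samples were close together. Among the FKC groups its level ranged from -1.40 to 7.76 after E. tarda FKC at 6 h, from 1.77 to 6.54 at 12 h, from 6.80 to 7.41 after S. iniae FKC at 6 h and from 3.25 to 6.52 at 12 h. The lowest sample was replicate 3 after E. tarda FKC at both times. After S. iniae FKC it was replicate 1 at 6 h and replicate 2 at 12 h. No other variable probe had a likeness of 0.95 to it, but among all 7590 probes at least 1 other did. None of the 87 variable probes was called over time, against 0.994% of all tested probes. The wide spread that chose the 87 enters the limma test, so they were unlikely to be called and this says nothing about time. Their lowest sample at 12 h was replicate 2 in 41.4%, against 36.5% of all 7590 probes, and their lowest sample at 6 h was replicate 1 in 34.5%, against 14.1%. This 34.5% is 30 probes and holds all 10 that vary together, which may not count as separate observations. In 24 of the 87 (27.6%) the highest sample had the same number at both times, against 19.6% of the 7590, and in 17 (19.5%) the lowest had, against 18.2%. Samples of 1 number shared a column of the slide.

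Between 6 h and 12 h a small part of the profile shifted, mostly downward. Of 11062 probes tested with limma, 110 were called at a Benjamini-Hochberg adjusted p under 0.05, which is 0.994% of those tested. At 12 h 20 were higher (0.181%) and 90 were lower (0.814%). At an unadjusted p under 0.05 there were 1216 probes, 457 higher and 759 lower. The median change of all tested probes was -0.02. The excess of lower calls depended on the processing, since 18.2% of the calls were higher at 12 h here, 28.7% after quantile normalization (29 higher and 72 lower) and 40% with normexp as the background correction before quantile normalization (64 higher and 96 lower). The count of calls was 70 without replicate 4 of 6 h and 65 without replicate 2 or replicate 3 of 12 h. It was 52 with arrays centred on the spike-ins and 444 with array weights. With the replicate number as a block in the PBS arrays alone it was 4.

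The 90 lower probes fell by a median of 1.74 on the log2 scale, from a median level of -1.96 at 6 h to -4.04 at 12 h, where the median levels of all tested probes were -1.34 and -1.40. They were thus dim at 12 h. Of them, 24 were well above background on all 8 arrays, 22 on some arrays of both times, 42 on arrays of 1 time only and 2 on none. The spots of all 110 calls lay between rows 1 and 190 of 192, with a median row of 104 against 95 for all tested probes. Whether they lay evenly over the array was not tested. The 110 calls bear 110 different names, 108 of them contigs.

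Among the lower calls, 24 probes were well above background on all 4 arrays at 6 h and on none at 12 h. In all, 100 probes had that pattern of detection, and 0 had the opposite one. The lowest level that was well above background lay at -4.13, -3.84, -5.42 and -3.73 on the arrays of 6 h and at -3.42, -3.92, -3.40 and -3.32 on those of 12 h, so it was higher on most arrays of 12 h. Its part in this pattern was not tested. Because a level at 12 h was only bounded for the 24, their folds are lower bounds, taken against the lowest signal that was well above background on each array or the probe's own where that was higher. Of the 24, 12 were at least 2-fold lower at 12 h and 5 at least 4-fold, and the largest was at least 6.84-fold lower. For 1 of the 24 the bound was under 1 and no fold is given.

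The 36 calls well above background on every PBS array have measured sizes on both sides. The 24 lower ones ranged from -0.63 to -2.70 and the 12 higher ones from 0.64 to 2.11 on the log2 scale. The sizes depended on the background correction. With normexp (offset 50) and quantile normalization, CUST_13803_PI426483990 gave -1.76 and CUST_12732_PI426483990 -1.44. There CUST_2598_PI426483990 gave 1.63 and CUST_749_PI426483990 1.01, and each of these probes, described below, stayed called. In all 36 the times did not overlap, as in 9.31% of all tested probes. A call on the same arrays favours such a separation, so this adds no support. With the test restricted to the 7590 probes well above background on all 8 PBS arrays, 27 were called, 8 higher and 19 lower. The main test called 110 of 11062.

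CUST_13803_PI426483990, of contig JFC03460_1_code, had the largest fall among these. Its level was 0.16, 0.25, 0.63 and -0.06 at 6 h and -1.88, -2.95, -2.69 and -2.28 at 12 h. Every sample of 6 h lay above every sample of 12 h, which the choice of this probe required. It fell by 2.70 (SE 0.40, limma adjusted p = 0.00148), from 0.24 ± 0.29 (SD, n = 4) to -2.45 ± 0.47 (SD, n = 4), which is 6.48-fold.

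CUST_12732_PI426483990, of contig JFC18516_1_code, gave -0.47, -0.78, -0.29 and -0.90 at 6 h and -2.90, -3.48, -2.85 and -2.67 at 12 h. Again the times did not overlap, as the choice of this probe required. It fell by 2.36 (SE 0.31, limma adjusted p = 0.000711), from -0.61 ± 0.28 (SD, n = 4) to -2.98 ± 0.35 (SD, n = 4), which is 5.15-fold. Both falls stayed called without any single PBS array.

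CUST_2598_PI426483990, of contig JFC00616_1_code, had the largest rise among the calls well above background on all 8 PBS arrays. Its level was -1.20, -0.94, -1.39 and -1.15 at 6 h and 0.99, 0.34, 1.38 and 1.03 at 12 h. Every sample of 12 h lay above every sample of 6 h, which the choice of this probe required. The rise was 2.11 (SE 0.32, limma adjusted p = 0.00226), from -1.17 ± 0.18 (SD, n = 4) to 0.94 ± 0.43 (SD, n = 4), which is 4.31-fold, and it stayed called without any single PBS array.

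CUST_749_PI426483990, of contig JFC18884_1_code, was next among them, with -2.13, -3.41, -3.51 and -2.81 at 6 h and -0.86, -1.87, -0.35 and -0.70 at 12 h. The times did not overlap, again by the choice of the probe, although replicate 1 of 6 h and replicate 2 of 12 h came close to each other. The rise was 2.02 (SE 0.45, limma adjusted p = 0.0334), from -2.97 ± 0.64 (SD, n = 4) to -0.94 ± 0.65 (SD, n = 4). This call was lost without replicate 2, 3 or 4 of 6 h or replicate 1, 3 or 4 of 12 h (limma adjusted p from 0.0719 to 0.13) and in the fit of the 8 PBS arrays alone (limma adjusted p = 0.0811).

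**Figure D3:**
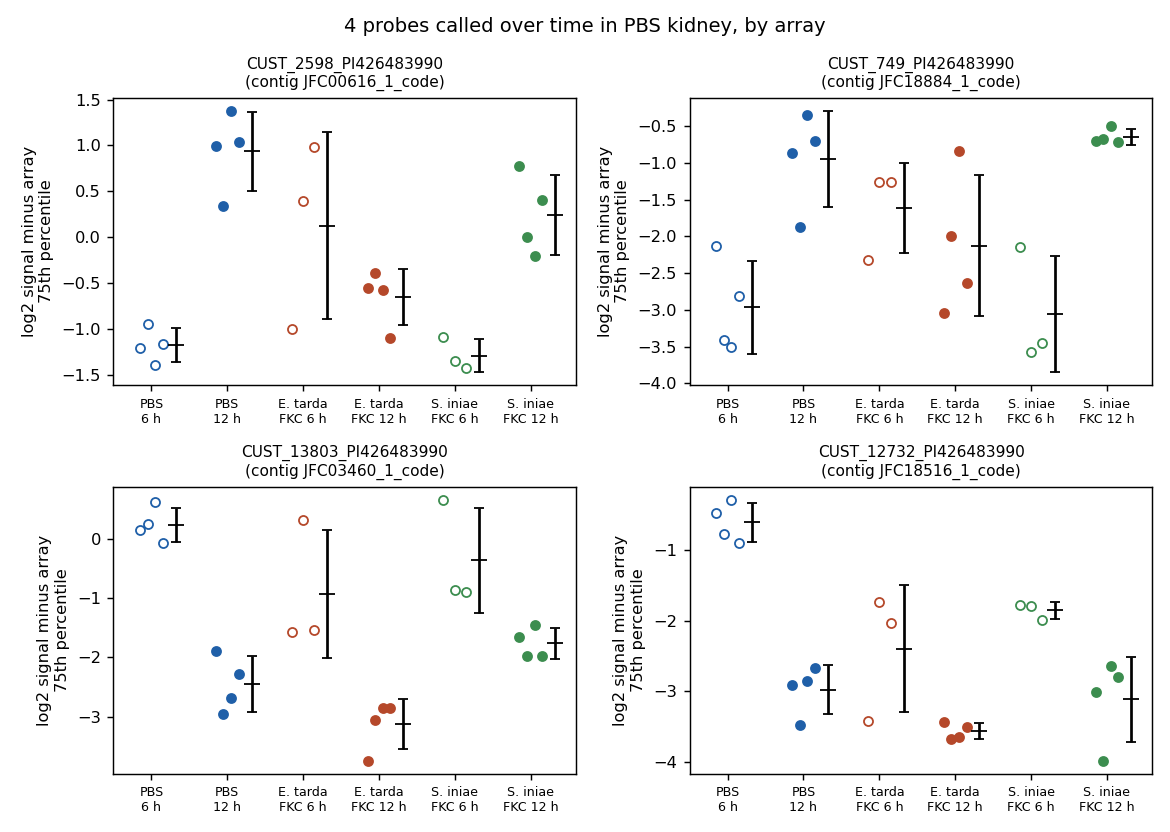
Level (log2 signal minus the array's 75th percentile) of the 4 named probes on every array of the 6 groups, open circles at 6 h and filled circles at 12 h, with the group mean and SD as bars beside them. In PBS (blue, left) the 2 upper probes rise by 2.11 and 2.02 and the 2 lower probes fall by 2.70 and 2.36. The times do not overlap in PBS, since the probes were chosen from calls without overlap.

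The FKC time differences share no array with the PBS time difference. The FKC arrays did help to set the calls, since all 22 arrays gave the filter and the spread estimate of each probe. Calls in PBS and after FKC are thus not independent. The fit of the 8 PBS arrays alone called 71 probes, 52 of them among the 110. The FKC samples of 6 h and 12 h lay on different slides, in the same row for each preparation. Slide and time cannot be told apart there, where in PBS it is row and time. Of the 90 probes lower at 12 h in PBS, 86 were also lower at 12 h after S. iniae FKC, against 57.2% of all tested probes, and 33 of them were called. After E. tarda FKC 80 of the 90 were lower, against 57.0% of all tested probes, and 40 were called lower and 3 higher. For this time difference 13.9% of all probes were called after S. iniae FKC and 30.9% after E. tarda FKC, in either direction. Of the 24 lower probes well above background on all PBS arrays, 23 and 21 were lower. The median change of the 90 was -0.99 after S. iniae FKC and -0.81 after E. tarda FKC, against -0.12 and -0.14 over all tested probes.

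The share depended on the processing. With normexp and quantile normalization, 73 of the 90 were lower after S. iniae FKC and 63 after E. tarda FKC, where 51.6% and 52.6% of all tested probes were lower. Among the 24 that were measured throughout, these counts were 20 and 18.

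The 20 probes that were higher at 12 h in PBS were mostly higher after S. iniae FKC as well, in 16 of 20, against 42.8% of all tested probes, with 6 called higher and 0 called lower. After E. tarda FKC 8 of 20 were higher, against 43.0% of all tested probes, which is near that background, with 1 called higher and 2 called lower. Of the 12 that were measured on all PBS arrays, 12 were higher after S. iniae FKC and 6 after E. tarda FKC. In all, 86 of the 110 calls had the same direction in both preparations, 79 lower and 7 higher, where 45.1% of all tested probes had 1 direction in PBS and both preparations. Of the 110, 22 were also called in that direction in both, against 4.89% of all tested probes, and 48 were called in neither, against 62.4%.

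**Figure D4:**
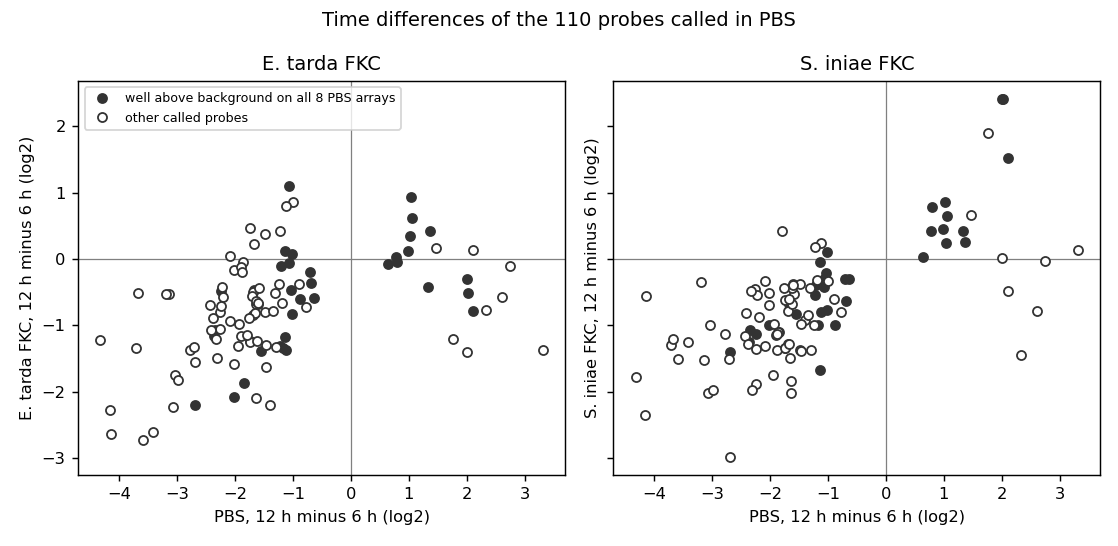
Difference of 12 h minus 6 h (log2) after E. tarda FKC (left) and S. iniae FKC (right) against that in PBS for the 110 probes called in PBS, with filled circles for the 36 well above background on all 8 PBS arrays. Points at the lower left are lower at 12 h in both; 80 and 86 of the 90 probes lower in PBS lie there.

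Averaged over the 90 lower probes, the level was between -2.02 and -1.69 on the PBS arrays of 6 h and between -3.99 and -3.48 on those of 12 h, a separation that the choice of probes fixed. The FKC arrays entered this choice only through the filter and the spread estimate. There the mean level was between -2.64 and -2.37 after S. iniae FKC at 6 h and from -3.89 to -3.23 at 12 h. After E. tarda FKC it was between -3.17 and -2.58 at 6 h and from -3.70 to -3.62 at 12 h. The times did not overlap after either preparation. On each PBS array of 12 h this mean lay below the lowest level that was well above background (-3.42, -3.92, -3.40 and -3.32). On replicate 2 of S. iniae FKC at 12 h it was -3.89 against -3.61, and on the other FKC arrays it lay above that level. The means thus hold background readings, and the part of these in the separation was not tested. Averaged over the 20 higher probes, S. iniae FKC went from between -2.66 and -2.55 to between -2.24 and -1.99, while E. tarda FKC at 6 h, between -2.47 and -2.20, overlapped with 12 h, between -2.76 and -2.41.

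**Figure D5:**
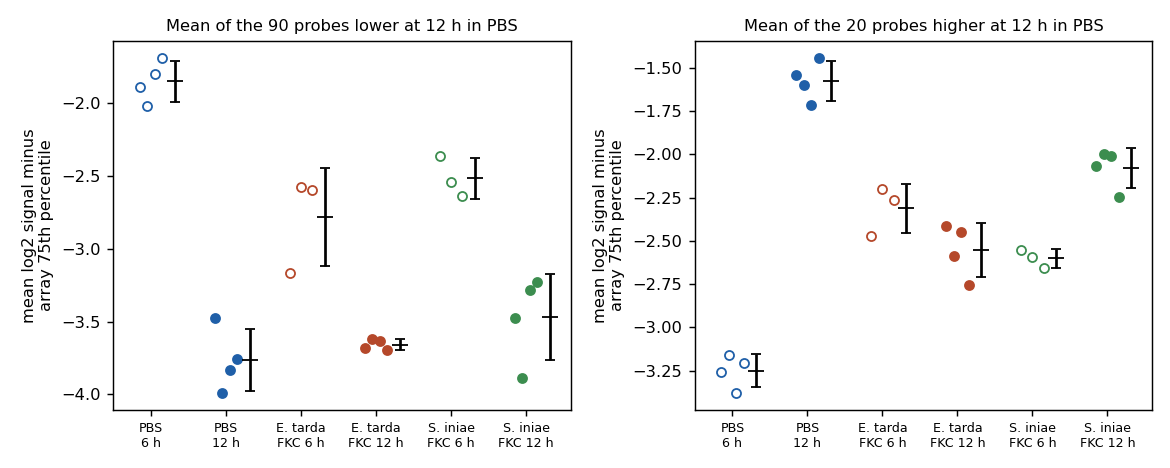
Mean level (log2 signal minus the array's 75th percentile) of the 90 probes lower (left) and the 20 probes higher (right) at 12 h in PBS, on every array of the 6 groups, open circles at 6 h and filled circles at 12 h, with the group mean and SD beside them. The lower set lies below -3.2 on each array of 12 h, in PBS and after both preparations. On each PBS array of 12 h its mean also lies below the lowest level that was well above background.

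Detection was also counted on the FKC arrays for the 24 probes that were well above background at 6 h and not at 12 h in PBS. After S. iniae FKC an array of 6 h detected between 19 and 22 of them and an array of 12 h between 2 and 12. After E. tarda FKC these ranges were 13 to 23 and 7 to 12. The FKC arrays of 6 h also had more probes well above background in all, between 9562 and 10659 against between 8039 and 9357 at 12 h, and the part of this in the result was not tested.

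The named probes had these time changes on the FKC arrays, where the preparations were not tested against each other. CUST_13803_PI426483990 fell by 2.20 after E. tarda FKC (limma adjusted p = 0.00105) and by 1.41 after S. iniae FKC (limma adjusted p = 0.036). CUST_12732_PI426483990 fell by 1.17 (limma adjusted p = 0.0139) and by 1.26 (limma adjusted p = 0.0203). CUST_2598_PI426483990 rose by 1.53 after S. iniae FKC (limma adjusted p = 0.00992) but gave -0.78 after E. tarda FKC (limma adjusted p = 0.0969). CUST_749_PI426483990 rose by 2.41 after S. iniae FKC (limma adjusted p = 0.00456) and gave -0.52 after E. tarda FKC (limma adjusted p = 0.439).

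The difference between the time changes was tested for each probe in the same model. For CUST_2598_PI426483990 the change after E. tarda FKC lay -2.89 from that in PBS (limma adjusted p = 0.00149), and for CUST_749_PI426483990 it lay -2.54 from it (limma adjusted p = 0.0212). The change after S. iniae FKC lay -0.58 and 0.39 from that in PBS for these probes (limma adjusted p = 0.596 and 0.819), and for the 2 falling probes neither preparation passed this test (limma adjusted p from 0.0954 to 0.624). Of the 110 calls, 34 passed it for E. tarda FKC, against 11.3% of all tested probes, and 2 for S. iniae FKC, against 0.949%. These counts and the tests of the named probes hold the PBS differences by which the probes were called or named. Neither supports anything about these probes.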

How the data were processed

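Cy3-labelled kidney RNA was hybridised to 1-colour arrays of a custom Agilent design, 1 for each sample. Deposited were scanner files with the intensity of each spot, background-subtracted and detrended within its array by Feature Extraction 10.7.3.1, per the file headers (9.5.3.1 in the submitters' processing notes). The authors' table of processed values was not used here, since each probe's median over the PBS arrays of a time is 0 in it.

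Spots flagged as outliers were left out and no spot was saturated on the PBS arrays. Log2 processed signals minus the array's 75th percentile were averaged over the spots of a probe (10 spots for 20 probes, 1 for the rest). A probe was tested if 3 or more of the 22 arrays had it well above background, leaving 90 missing values. All 6 group means were fitted together in limma 3.58.1 (lmFit, eBayes, R 4.3.3, 16 residual degrees of freedom). The fit was also run on simulated data with independent errors and no row or slide effect. That run says nothing about such effects in these arrays. Permutation tests used scipy 1.17.1. Alternatives were other background corrections, normalizations, filters, models and the omission of each PBS array.

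The rule named the 2 probes with the largest rise and the 2 with the largest fall among calls without overlap and well above background on all 8 PBS arrays, the 2 brightest and the 2 most variable probes. The 10 probes like the most variable one were chosen after its values were seen. The arrays, the rule and the gene lists were chosen with earlier results of these data known. The gene and marker lists could not be used, as no name matched.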

Additional observations from a re-analysis of the deposited data

Results flagged for a closer look

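Of 30 sets of 4 values, each a named probe or a measure of the arrays at 1 time, 3 had 1 array far from the other 3. Chance gives about 1 in 20 for independent sets that were not chosen by their values. These sets share arrays, and some probes were named for their spread, so that rate does not apply to them. CUST_271_PI426483993 was low on replicate 1 at both times, with the gap to the next array taking 0.88 of the whole range at 6 h and 0.879 at 12 h. Replicate 1 of both times lay in column 1 of the slide. The 10 brightest probes held 14.6% of the signal on replicate 2 of 6 h, against 10.8% to 10.9% on the other arrays of that time, a gap of 0.985 of the range. That array also had the lowest 75th percentile of the signal, 244.8.

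The time change of 2 named probes differed from that in PBS after E. tarda FKC by the test of the difference itself, at -2.89 for CUST_2598_PI426483990 (limma adjusted p = 0.00149) and -2.54 for CUST_749_PI426483990 (limma adjusted p = 0.0212). Both were named for their rise in PBS, and the tested difference holds that rise, so these p-values support nothing about them. The FKC times also lay on different slides and the PBS times in different rows.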

How the results depend on the processing

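The 110 calls of PBS at 12 h against 6 h became 52 when arrays were centred on the spike-ins (12 higher, 40 lower, with the median of all probes moved from -0.02 to 0.18), 27 among probes well above background on all 8 PBS arrays, 71 in the fit of the 8 PBS arrays alone and 444 with array weights. Of these, 52, 27, 52 and 110 were among the 110. The 27 were called among 7590 tested probes, the other counts among 11062. Leaving out 1 array gave 65 to 121 calls. Under the alternatives run, each of the 110 that was tested kept its direction. The 110 were chosen for their difference on these same arrays, so this was likely and adds no support. With the replicate number as a block, 4 probes were called and no named probe was (limma adjusted p of 0.0513 to 0.148). The number equals the column on the slide, and over all probes same-numbered arrays did not deviate together (correlations of -0.31 to -0.10, and 0 of 4 best matched their own number). They share a number and a column and were not taken as pairs, although single probes such as CUST_271_PI426483993 stood apart on the same number at both times. The share of calls with the same direction after FKC was 80% for E. tarda and 92.7% for S. iniae. It was 56.25% and 77.5% after normexp with quantile normalization, 68.3% for E. tarda after quantile normalization, and 73.1% to 88% and 87.1% to 96.9% without 1 array. The fewer probes above background at 12 h (-845) were fewer in each alternative, and the difference in distance between times (0.0062) ranged from -0.0402 to 0.0488. With 3 arrays against 4 the exact test cannot go below 0.0571, so these omissions say nothing about its call. The probes dim at 1 time limit the sizes that can be given.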

Other observations

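Probes named by entries other than contigs made up 2.96% of all probes. They were 17 of the 100 brightest probes in the PBS kidney and 16 of the 87 that varied most between samples, against 3.21% of the 7590 probes considered there. Of the 335 tested with such a name 2 were called over time, 0.597%, which is near the 0.994% of all tested probes. Some variable probes rested on 1 sample: in 19 of the 87, 1 array at 6 h or at 12 h lay far from the other 3 by the same measure of gap over range, which was so in 12.8% of the 7590.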
